A study of Rattus norvegicus with 11 samples.

Results

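Collagen genes were followed in rat lung under normoxia, hypoxia, and hypoxia with SU5416. They were taken as every probe set, a group of array probes for 1 transcript, whose single annotated gene symbol is Col, a number, a and a number. This rule found 58 probe sets for 41 genes, among 31099 probe sets on the array and 14217 genes with a symbol. By the type of supramolecular structure, 11 genes (19 probe sets) encode fibrillar collagens, 7 genes (11 probe sets) basement membrane collagens, and 23 genes (28 probe sets) other collagens. The RefSeq genes Col4a3, Col6a4 and Col28a1 had no probe set under this rule.

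RNA from whole lung of Dahl salt-sensitive rats weighing 250 to 350 g was hybridised to 11 Affymetrix arrays, after the blood vessels of the lung had been perfused. The normoxia group breathed room air (4 arrays). The hypoxia group lived in air with close to 9.5% oxygen (4 arrays), and the third group in the same air with SU5416, an inhibitor of the receptors for vascular endothelial growth factor (3 arrays). Lungs were collected at 3.5 weeks, and the series text lists vehicle for the first 2 groups. All groups share the strain, which is prone to salt-induced hypertension. No group analysed here received SU5416 in room air, so SU5416 can be read only on top of hypoxia, and the group that also received sorafenib was not analysed here. The labels do not say that each array is a separate animal, so p-values measure only the spread between these arrays, and the number of arrays limits the precision.

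A collagen molecule is a triple helix of 3 chains, of the same gene or of different genes. Fibrillar collagens form the tensile fibres around vessels and airways, with type I and type III as the main ones in lung and type V as the type on which fibrils start. Type IV collagen builds the sheet-like network of basement membranes under endothelium and epithelium, and types XV and XVIII carry glycosaminoglycan chains at the border of that membrane with the tissue. Type VI forms beaded filaments, types VIII and X form hexagonal nets, the fibril-associated collagens with interrupted triple helices (FACIT) coat fibrils, and others span cell membranes. Remodelling of the pulmonary vessel wall in chronic hypoxia is known for deposition of matrix, including collagens.

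The genes of type IV chains lie in head-to-head pairs that start from opposite strands, and the Col4a2-Col4a1 pair is the basis of a chain comparison below, so its shared promoter is shown first. The promoters of Col18a1 and Col15a1 are shown because these related genes had the largest hypoxia differences of the basement membrane group and lay far apart with SU5416. Sequences are RefSeq's on build GRCr8, written 5′ to 3′ on the plus strand. Capitals mark the GC box GGGCGG, a site class of Sp1-type factors, and the core letters ACGTG or GCGTG of hypoxia response elements, read on either strand, so that CCGCCC and CACGC are the same letters on the opposite strand.
Col4a2-Col4a1 shared promoter, chr16:84885521-84885596 (+): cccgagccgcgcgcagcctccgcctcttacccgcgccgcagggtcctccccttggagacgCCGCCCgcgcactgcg
Col18a1 upstream, chr20:11473395-11473644 (+): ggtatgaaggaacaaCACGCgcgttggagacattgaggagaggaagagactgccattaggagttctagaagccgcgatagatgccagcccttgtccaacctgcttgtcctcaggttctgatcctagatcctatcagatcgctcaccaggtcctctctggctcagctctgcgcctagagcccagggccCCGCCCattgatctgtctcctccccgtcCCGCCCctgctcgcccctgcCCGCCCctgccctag
Col15a1 upstream, chr5:66297296-66297545 (+): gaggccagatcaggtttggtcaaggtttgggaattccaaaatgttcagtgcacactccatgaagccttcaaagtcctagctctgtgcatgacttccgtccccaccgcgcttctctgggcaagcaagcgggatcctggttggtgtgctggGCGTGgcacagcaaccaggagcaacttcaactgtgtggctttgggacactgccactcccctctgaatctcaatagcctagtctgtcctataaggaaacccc

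The 76 bases between the annotated starts of Col4a2 and Col4a1 held 1 GC box and are 78.9% G or C. The 250 bases before the Col18a1 start held 3 GC boxes and 1 hypoxia element core, and those of Col15a1 held 1 core and no GC box. A promoter was matched for 32 of the 41 collagen genes. In the 250 bases before the start, GGGCGG on either strand was found in 18 of the 32 (56.2%), against 32.4% of all 27457 promoters in the RefSeq table. ACGTG or GCGTG on either strand was found in 14 (43.8%), against 37.9%. Both counts hold Col4a1 and Col4a2 as separate promoters, although their 250-base windows overlap and reach past the shared 76 bases. Those 76 bases hold no hypoxia element core. The TATA box letters TATAAA were found in 12.5% against 13.1%, and CCAAT in 28.1% against 34.3%. These matches describe letters in a window and are not measured binding.

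Values are log2 signals, and a level was taken as background when a group's mean was below 5.72. That level is the 95th percentile over 27 controls for bacterial transcripts. Of the 58 collagen probe sets, 52 were above background in at least 1 group, 47 in all groups and 6 in none. The genes Col5a3, Col9a1 and Col19a1 were below background on every probe set, and no fold is given for them. The other probe sets below background in every group were 2 of Col11a1 and 1 of Col12a1. Each gene is described by its probe set of highest mean over all arrays. For 14 genes several probe sets exist, and they differed from normoxia in 1 direction for 8 of the 14 genes in hypoxia and for 11 of the 14 in hypoxia with SU5416.

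Some normoxia arrays stood apart. For beta-actin, the signal at the 3′ end, against that at the 5′ end a measure of RNA integrity, was higher by 2.24 log2 on normoxia array 1 and 1.33 on array 2, and by 0.51 to 0.87 on the other 9 arrays. The log2 of the summed signal of 6 cardiac muscle markers was 14.0 on normoxia array 3 and 12.6 on array 2, against 9.93 and 9.77 on normoxia arrays 1 and 4, 10.1 to 11.9 in hypoxia and 10.4 to 12.2 with SU5416. Values without these arrays are given below, and the part of heart tissue in the collagen values was not tested.

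No collagen probe set was called in any of the 3 comparisons, that is, none had a Benjamini-Hochberg adjusted p below 0.05 in limma over all 31042 probe sets tested. The share of all probe sets called was 0.00644% for hypoxia against normoxia, 0.0612% for hypoxia with SU5416 against normoxia and 0.0258% for hypoxia with SU5416 against hypoxia. SAM, the test named in the series text, was coded here from its definition for each pair of groups, without an estimate of false calls. This version called 0, 4 and 1 collagen probe sets in these comparisons, all of Col18a1, Col6a5 and Col11a1. Among all 31042 probe sets it called 584 (all lower), 366 (185 higher and 181 lower) and 311 (310 higher). The Col11a1 signal that SAM called lay below background in every group. All differences below are therefore given as measured values, and the first 2 comparisons share the normoxia arrays.

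At an unadjusted p below 0.05, 3 collagen probe sets were higher in hypoxia than in normoxia and 1 was lower, or 5.17% and 1.72% of the 58, where 3.33% and 7.64% of all probe sets were. In hypoxia with SU5416 against normoxia, 10 collagen probe sets were higher (17.2%) and 4 lower (6.9%), against 4.82% and 7.57% of all. In hypoxia with SU5416 against hypoxia, 3 were higher (5.17%) and 4 lower (6.9%), against 4.02% and 3.45%. Of these 6 shares, that of the 10 higher ones stood farthest above the share of all probe sets, and Col1a1, Col1a2 and Col18a1 count there with 2 probe sets each. These 10 belonged to Col1a1, Col1a2, Col4a4, Col5a1, Col11a1, Col16a1 and Col18a1, and the 4 lower ones to Col2a1, Col6a5, Col11a2 and Col20a1. The Col11a1 probe set among the 10 lay below background in every group, and it is also 1 of the 3 that were higher in hypoxia.

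Counting arrays that did not overlap between groups gave these counts. In hypoxia against normoxia, all arrays were higher for 1 collagen probe set, that of Col4a2, and lower for 0, against 2.05% and 4.08% of all probe sets. In hypoxia with SU5416 against normoxia, 11 were higher (19%) and 1 lower (1.72%), against 4.94% and 6.97%. In hypoxia with SU5416 against hypoxia, 6 were higher (10.3%) and 4 lower (6.9%), against 6.27% and 5.25%. The 11 and the 6 each include the Col11a1 probe set that lay below background in every group.

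**Figure D1:**
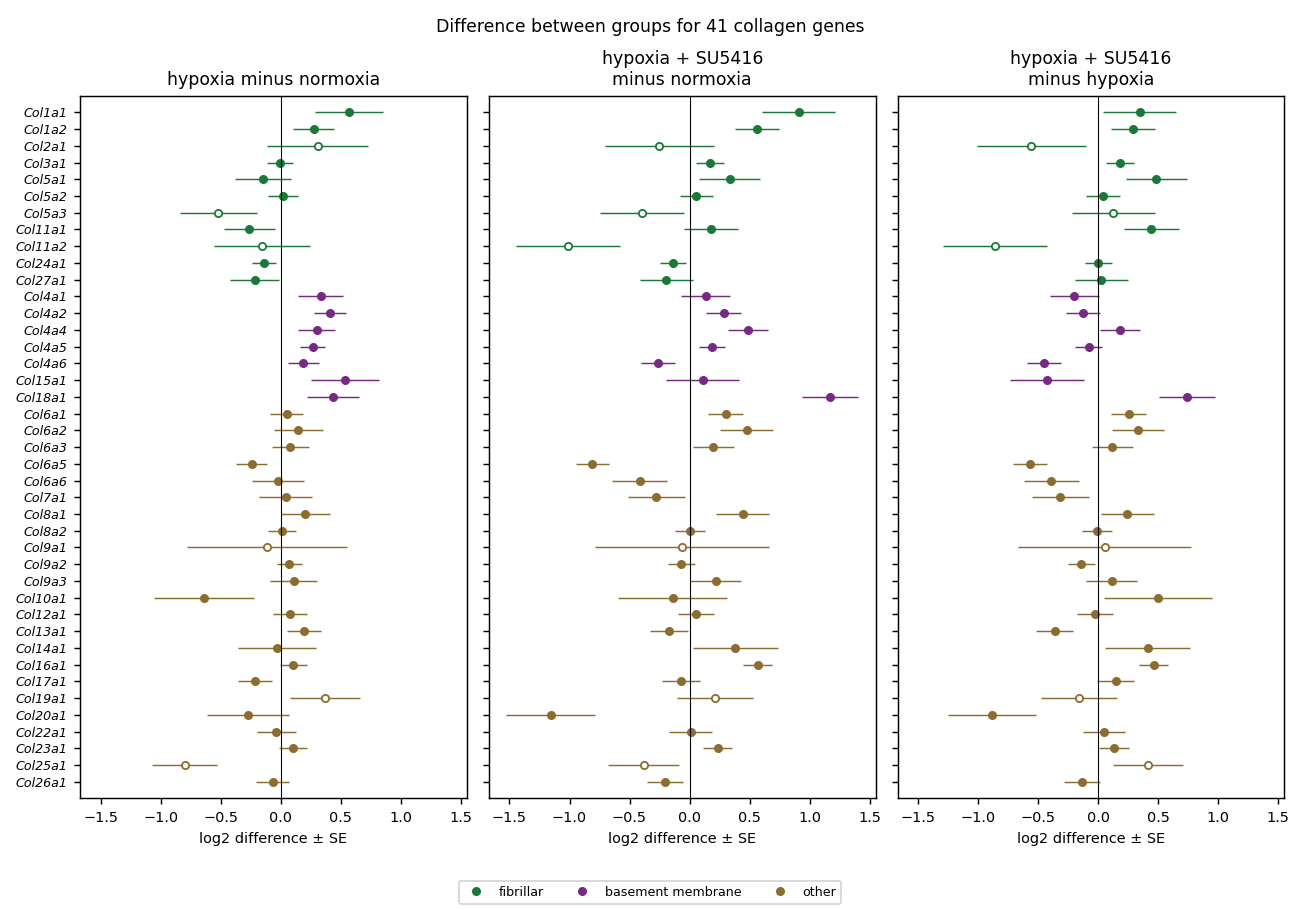
Difference of group means on the log2 scale (horizontal axis) with its standard error (bars) for each of the 41 collagen genes, by class, in 3 comparisons. Open points are genes below background in at least 1 group. In hypoxia all 7 basement membrane genes lie right of 0. With SU5416, Col18a1 lies farthest right (1.17 against normoxia) and Col20a1 farthest left (-1.16), and no gene passed the adjusted threshold.

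Type I collagen, the main tensile fibre, had its highest and least variable signal in hypoxia with SU5416. Col1a1, which encodes the chain present 2 times in each molecule, read 11.01, 11.12, 12.03 and 11.22 log2 on the 4 normoxia arrays. It read 12.31, 12.35, 11.72 and 11.26 on the hypoxia arrays, and 12.37, 12.28 and 12.11 on the arrays of hypoxia with SU5416. Normoxia array 3 was above hypoxia arrays 3 and 4, whereas every SU5416 array was above every normoxia array. The difference from normoxia was 0.57 (SE 0.28, 1.48-fold, limma adjusted p = 0.499) in hypoxia and 0.91 (SE 0.31, 1.88-fold, limma adjusted p = 0.286) in hypoxia with SU5416. The second Col1a1 probe set differed by 0.47 and 0.92, with overlapping arrays in both. Without normoxia array 3 the first probe set differed by 0.79 and 1.14.

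Col1a2, the other chain of type I, read 12.15, 12.50, 12.85 and 12.73 in normoxia. It read 13.00, 13.05, 12.78 and 12.49 in hypoxia, and 13.13, 13.14 and 13.09 in hypoxia with SU5416. Each SU5416 array was above each array of the other groups, and its standard deviation (SD) was 0.03, against 0.31 in normoxia and 0.26 in hypoxia. The difference was 0.27 (SE 0.17, limma adjusted p = 0.587) in hypoxia, 0.56 (SE 0.19, limma adjusted p = 0.278) in hypoxia with SU5416 against normoxia, and 0.29 (SE 0.19, limma adjusted p = 0.798) against hypoxia. On the second Col1a2 probe set the groups overlapped in all comparisons, with an SD of 0.10 in the SU5416 group, and the differences were 0.24, 0.63 and 0.39.

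The 3 other fibrillar genes of the fixed set differed less from normoxia. Col3a1, the sole chain of type III, had means of 13.07 ± 0.09 (SD, n = 4), 13.06 ± 0.17 (n = 4) and 13.24 ± 0.09 (n = 3) in normoxia, hypoxia and hypoxia with SU5416. Its difference of -0.01 in hypoxia turned positive with quantile normalization or centring on array medians, and it was 0.17 (SE 0.12) in hypoxia with SU5416. Col5a1 and Col5a2 are chains of type V. For Col5a1 the difference was -0.15 (SE 0.23) in hypoxia and 0.34 (SE 0.25) in hypoxia with SU5416, and its second probe set gave 0.05 and 0.51. Against hypoxia, Col5a1 with SU5416 differed by 0.48 (SE 0.25, limma adjusted p = 0.742) and 0.46 on these probe sets, with overlapping arrays. The 2 probe sets of Col1a1 gave 0.34 and 0.45 (SE 0.31 and 0.40) for this comparison. For Col5a2 the difference from normoxia was 0.02 and 0.06 (SE 0.13 and 0.14), values whose sign turned under quantile normalization.

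Of the other fibrillar genes, the cartilage-type genes Col2a1 and Col11a2 were near background. Col2a1 read 4.79 to 6.63 on its brightest probe set, and its 3 probe sets had different signs in hypoxia. Col11a2 read 6.67, 7.20, 6.58 and 5.29 in normoxia, 5.90, 6.77, 6.13 and 6.31 in hypoxia, and 5.76, 4.73 and 5.77 in hypoxia with SU5416. The SU5416 group was below background there, at least 1.64-fold lower than normoxia by that bound (fitted difference -1.01, SE 0.43, limma adjusted p = 0.382), with normoxia array 4 inside its range. Col11a1 read between 6.97 and 8.19 on its brightest probe set. Its differences there were -0.26 and 0.18 from normoxia, while a second probe set that lay below background in every group gave 1.52 and 2.53. Col24a1 and Col27a1 differed by -0.14 and -0.22 in hypoxia and by -0.14 and -0.19 in hypoxia with SU5416. Counting every fibrillar gene, the median difference was -0.14 in hypoxia (4 of 11 higher) and 0.06 in hypoxia with SU5416 (6 of 11 higher), the second turning to -0.0152 with quantile normalization. Over the 8 fibrillar genes above background in all groups the medians were -0.08 and 0.17, and with dim probe sets left out they were 0.02 and 0.34. Medians over all genes were -0.005 and -0.0151. Against hypoxia alone the fibrillar median was 0.125 (9 of 11 higher), beside -0.0046 over all genes. This median is the value of Col5a3, which was below background in every group. Over the 8 fibrillar genes above background it was 0.23 (all 8 higher, by 0.0013 to 0.48), beside -0.0075 over all genes above background.

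**Figure D2:**
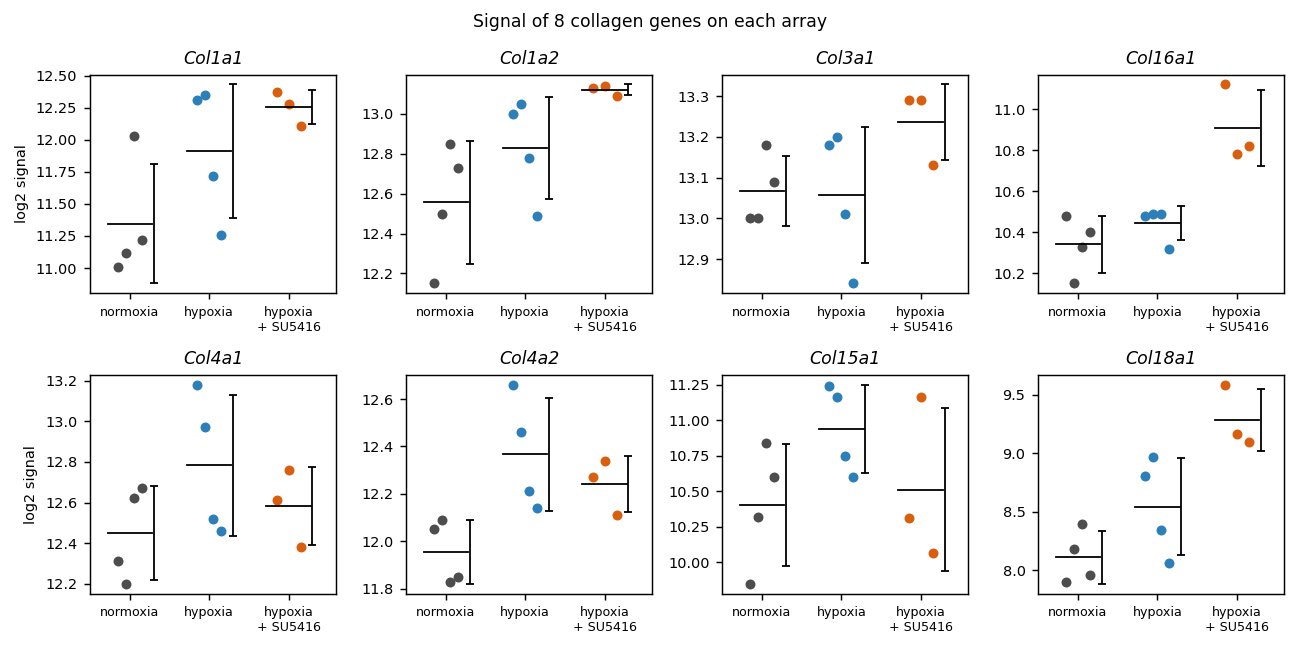
Log2 signal (vertical axis) of 8 collagen genes on each array. Points within a group stand in order of array number, horizontal lines are means and bars are 1 SD. The SU5416 arrays of Col18a1 (9.10 to 9.59), Col16a1 (10.78 to 11.12) and Col1a2 (13.09 to 13.14) lie above all other arrays, and the hypoxia arrays of Col4a2 (12.14 to 12.66) lie above all normoxia arrays.

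Every basement membrane collagen gene had a higher mean in hypoxia than in normoxia, by 0.19 to 0.54 log2 with a median of 0.33, while 48.9% of all genes were higher. On each of the 11 probe sets of these genes the sign was the same, but all probe sets of an array share its RNA. The median over the 7 genes, less the normoxia mean, was 0.699, 0.505, 0.34 and 0.06 on hypoxia arrays 1 to 4. On the normoxia arrays it ran from -0.08 to 0.17, so hypoxia array 4 lay within that range. Without normoxia arrays 1 and 2 the sign turned on the second probe sets of Col15a1 (-0.02) and Col4a6 (0.48 with all arrays, -0.25 without). None passed the adjusted threshold. Col4a2, a chain of the ubiquitous type IV network, read 12.05, 12.09, 11.83 and 11.85 in normoxia, 12.66, 12.46, 12.21 and 12.14 in hypoxia, and 12.27, 12.34 and 12.11 with SU5416. The hypoxia arrays lay above the normoxia arrays without overlap, as did the SU5416 arrays. The difference was 0.41 (SE 0.13, 1.33-fold) in hypoxia with a limma adjusted p of 0.348, the lowest of any collagen in that comparison, and 0.29 (SE 0.14) in hypoxia with SU5416.

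Col4a1, its partner in the same molecule, read 12.31, 12.20, 12.62 and 12.67 in normoxia, 13.18, 12.97, 12.52 and 12.46 in hypoxia, and 12.61, 12.76 and 12.38 with SU5416. Hypoxia arrays 1 and 2 were high and arrays 3 and 4 lay within the normoxia range. The difference was 0.33 (SE 0.19, limma adjusted p = 0.549) in hypoxia and 0.13 (SE 0.20) in hypoxia with SU5416, and the second Col4a1 probe set gave 0.33 and 0.37.

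The less widespread type IV chains were split with SU5416. Col4a4, a chain of the network found in alveolar basement membranes, read 7.88, 7.36, 7.97 and 7.57 in normoxia, 8.10, 7.88, 8.16 and 7.85 in hypoxia, and 8.10, 8.38 and 8.06 with SU5416. It differed by 0.30 (SE 0.15) and 0.48 (SE 0.17, limma adjusted p = 0.294), and every SU5416 array was above every normoxia array. Col4a5 differed by 0.27 (SE 0.10, limma adjusted p = 0.403) in hypoxia and by 0.19 (SE 0.11) with SU5416.

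Col4a6, which lies head to head with Col4a5, read 7.80, 7.52, 7.79 and 7.61 in normoxia, 7.83, 7.97, 8.06 and 7.61 in hypoxia, and 7.54, 7.50 and 7.22 with SU5416. All SU5416 arrays were below all hypoxia arrays (difference -0.45, SE 0.14, limma adjusted p = 0.504). The second Col4a6 probe set gave -0.18 for this comparison, with overlapping arrays, and against normoxia the 2 probe sets had opposite signs (-0.26 and 0.30).

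Types XV and XVIII are close relatives that release the anti-angiogenic fragments restin and endostatin from their ends, and they differed in the SU5416 group. Col18a1 read 7.90, 8.18, 8.39 and 7.96 in normoxia, 8.81, 8.97, 8.34 and 8.06 in hypoxia, and 9.59, 9.16 and 9.10 with SU5416. Each SU5416 array was above every other array, while hypoxia arrays 3 and 4 lay within the normoxia range. Means were 8.11 ± 0.22 (SD, n = 4), 8.55 ± 0.42 (n = 4) and 9.28 ± 0.27 (n = 3).

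The Col18a1 difference was 0.44 (SE 0.21) in hypoxia, 1.17 (SE 0.23, 2.25-fold) in hypoxia with SU5416 against normoxia and 0.74 (SE 0.23, 1.67-fold) against hypoxia. The limma adjusted p was 0.493, 0.107 and 0.512. The second Col18a1 probe set read 7.95, 7.55, 8.13 and 8.09 in normoxia, 8.46, 8.37, 7.87 and 8.26 in hypoxia, and 9.59, 9.36 and 8.80 with SU5416. It differed by 0.31, 1.32 (2.50-fold) and 1.01 (2.02-fold), and again its SU5416 arrays stood above all others. Its limma adjusted p of 0.0721 against normoxia was the lowest of any collagen in any comparison, and quantile normalization brought it under the threshold.

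Col15a1 read 9.85, 10.32, 10.84 and 10.60 in normoxia, 11.24, 11.16, 10.75 and 10.60 in hypoxia, and 10.31, 11.16 and 10.06 with SU5416. The groups overlapped in all comparisons. It differed by 0.54 (SE 0.28, limma adjusted p = 0.520) in hypoxia and by 0.11 (SE 0.31) with SU5416, and its second probe set gave 0.49 and 0.10. Over the 7 basement membrane genes the median difference was 0.19 in hypoxia with SU5416 against normoxia (6 of 7 higher) and -0.13 against hypoxia (2 of 7 higher, Col4a4 and Col18a1).

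**Figure D3:**
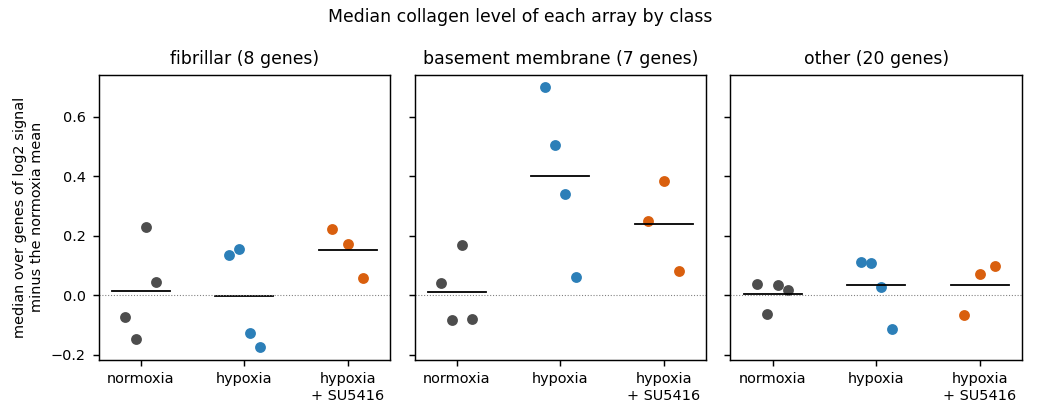
Median over genes of the log2 signal minus the normoxia mean (vertical axis) on each array, for the collagen genes above background in all groups (8 fibrillar, 7 basement membrane, 20 other). Lines are means of the arrays. The basement membrane medians run from -0.08 to 0.17 in normoxia, from 0.06 to 0.70 in hypoxia and from 0.08 to 0.39 with SU5416, so the groups overlap.

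Several collagen differences moved when normoxia arrays 1 and 2, those of the wide beta-actin gap, were left out. These 2 arrays held the lowest normoxia values of Col1a1, Col1a2, Col4a1 and Col15a1 and the highest of Col4a2. Without them the hypoxia differences were 0.29 for Col1a1 (0.005 on its second probe set), 0.04 for Col1a2 (-0.14 on its second) and 0.22 for Col15a1, and the basement membrane median was 0.22. The SU5416 difference of Col18a1 was then 1.11 and that of Col1a1 0.63, that of Col1a2 0.33, and those of Col4a1 and Col15a1 turned negative (-0.06 and -0.21).

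Among the other collagens, 13 of 23 genes were higher in hypoxia and 12 of 23 in hypoxia with SU5416, with medians of 0.04 and 0.0016. Type VI, a filament between cells and fibres, was divided. Col6a1, Col6a2 and Col6a3, the chains of the common molecule, differed with SU5416 by 0.30, 0.48 and 0.20 (SE 0.15, 0.22 and 0.17), with limma adjusted p of 0.450, 0.416 and 0.676. In hypoxia they differed by 0.05, 0.15 and 0.08. A second Col6a2 probe set gave the opposite sign, with -0.36 for SU5416 and -0.22 for hypoxia.

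Col6a5, an alternative type VI chain, lay on the other side of 0. It read 11.16, 10.88, 10.92 and 11.25 in normoxia, 10.95, 10.76, 10.60 and 10.93 in hypoxia, and 10.09, 10.41 and 10.23 with SU5416. All SU5416 arrays were below all other arrays. The difference was -0.24 (SE 0.13) in hypoxia, -0.81 (SE 0.14, 1.75-fold lower, limma adjusted p = 0.0755) with SU5416 against normoxia, and -0.57 (SE 0.14, limma adjusted p = 0.420) against hypoxia. Its neighbour gene Col6a6 differed by -0.42 (SE 0.23, limma adjusted p = 0.495) with SU5416 against normoxia, and its arrays overlapped.

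Of 9 FACIT genes, 6 had a higher mean with SU5416 than in normoxia. Col16a1 read 10.48, 10.15, 10.33 and 10.40 in normoxia, 10.48, 10.49, 10.49 and 10.32 in hypoxia, and 11.12, 10.78 and 10.82 with SU5416. Every SU5416 array was above every other array, and normoxia and hypoxia overlapped. The difference was 0.11 (SE 0.11) in hypoxia, 0.57 (SE 0.12, 1.48-fold, limma adjusted p = 0.125) with SU5416 against normoxia and 0.46 (SE 0.12, limma adjusted p = 0.442) against hypoxia.

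Col20a1 read 7.27, 7.13, 5.97 and 7.40 in normoxia, 6.11, 7.04, 6.39 and 7.14 in hypoxia, and 6.08, 5.78 and 5.49 with SU5416. The SU5416 mean of 5.78 was just above background, and normoxia array 3 lay inside its range. The difference was -1.16 (SE 0.37, 2.23-fold lower, limma adjusted p = 0.263) against normoxia and -0.89 (SE 0.37, limma adjusted p = 0.637) against hypoxia, where no arrays overlapped. Col14a1, which binds decorin-coated fibrils, differed by -0.03 (SE 0.33) in hypoxia and 0.38 (SE 0.35) with SU5416, and centring turned the first value positive. Without normoxia arrays 1 and 2 these values were -0.53 and -0.12, and without normoxia array 3, which read 10.47 beside 8.93 to 9.57 on the others of its group, they were 0.28 and 0.69. Col12a1, its relative, differed by 0.08 and 0.05 (SE 0.14 and 0.15), while a second probe set above background in every group gave -0.34 and 0.37 (SE 0.33 and 0.36), with overlapping arrays.

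Col8a1, a chain of the hexagonal net beneath vascular endothelium, read 7.99, 8.56, 8.37 and 8.38 in normoxia, 8.44, 8.53, 9.05 and 8.10 in hypoxia, and 8.59, 8.73 and 9.00 with SU5416. The difference was 0.20 (SE 0.20) in hypoxia and 0.44 (SE 0.22, limma adjusted p = 0.448) with SU5416 and every SU5416 array was above every normoxia array. Its partner Col8a2 differed by 0.01 and 0.0016. Col13a1, a membrane-spanning collagen, was lower with SU5416 than in hypoxia (difference -0.37, SE 0.16, limma adjusted p = 0.644), with overlapping arrays. Col25a1 was above background only in normoxia, with a mean of 5.75, and was lower in hypoxia with an unadjusted p of 0.0145, a difference that the background level bounds at 1.02-fold. The remaining 8 other collagens that were above background in at least 1 group differed from normoxia by -0.64 (Col10a1 in hypoxia) to 0.23 (Col23a1 with SU5416).

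Chains that share a molecule were compared array by array, as deviations from the group mean over the 11 arrays, with an exact permutation test within groups (3456 arrangements, two-sided, 7 pairs, Benjamini-Hochberg adjusted). All probe sets on an array share its RNA and its scaling. For Col1a1 and Col1a2 Pearson's r was 0.86 (exact permutation p = 0.00897, adjusted 0.013) and Spearman's rho 0.927 (exact permutation p = 0.00116, adjusted 0.00406). For Col6a1 with Col6a2 r was 0.94 (exact permutation p = 0.00174, adjusted 0.00539; rho 0.955, p = 0.00174), and with Col6a3 0.855 (exact permutation p = 0.00231, adjusted 0.00539; rho 0.827, p = 0.00492). Leaving out the 2 arrays farthest from the median, r was 0.775, 0.902 and 0.815.

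For the type V chains Col5a1 and Col5a2, r was 0.743 (exact permutation p = 0.0376, adjusted 0.0439; rho 0.77, p = 0.0295) and 0.843 without 2 arrays, and centring lowered it to 0.623 (exact permutation p = 0.106). For Col4a1 and Col4a2, which share the promoter printed above, r was 0.519 (exact permutation p = 0.233; rho 0.555, p = 0.194) and 0.0502 without hypoxia arrays 1 and 4. Within normoxia these 2 genes ran opposite ways, arrays 1 and 2 being the low ones for Col4a1 and the high ones for Col4a2. Those 2 arrays are the ones with the wide beta-actin gap. In each of the other groups the 2 genes ranked the arrays alike. Both fell from hypoxia array 1 (13.18 and 12.66) to array 4 (12.46 and 12.14), and with SU5416 both were highest on array 2 and lowest on array 3. Chains of different molecules also went together. For Col1a1 and Col3a1 r was 0.922 (exact permutation p = 0.00116, adjusted 0.00539; rho 0.913, p = 0.00116), and for Col3a1 and Col4a1 0.884 (exact permutation p = 0.00926, adjusted 0.013; rho 0.804, p = 0.0289), with 0.952 and 0.867 without 2 arrays. The difference between any of these coefficients was not tested.

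**Figure D4:**
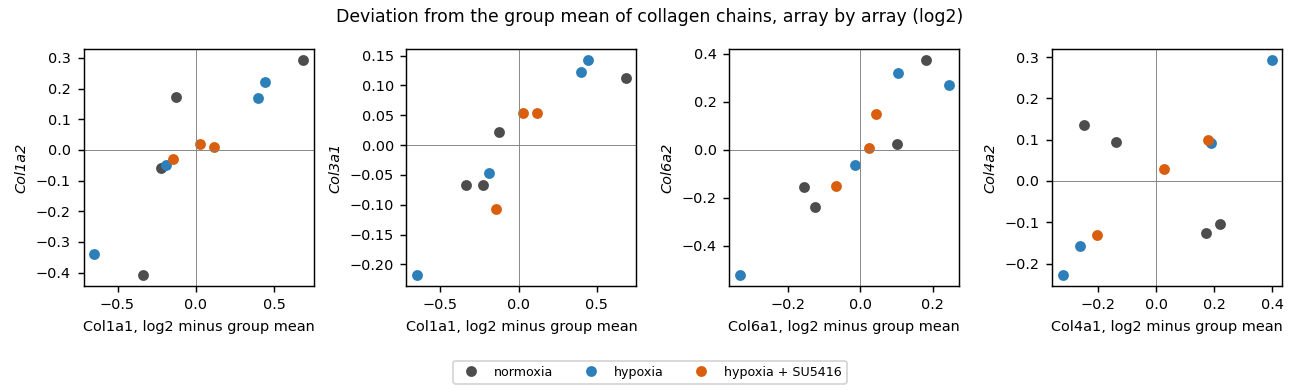
Deviation of each array from its group mean (log2) for pairs of collagen chains, 1 point per array. The points of Col1a1 with Col1a2 (r = 0.86), Col1a1 with Col3a1 (r = 0.922) and Col6a1 with Col6a2 (r = 0.94) lie along a line, and those of Col4a1 with Col4a2 (r = 0.519) hold 4 normoxia arrays that run the opposite way.

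Genes that modify, secrete, cleave and crosslink collagen chains were counted from a list of 62 symbols, of which 43 were measured. None was called in any comparison in limma. At an unadjusted p below 0.05, 9 of the 43 genes were higher (20.9%) and 3 lower (6.98%) in hypoxia with SU5416 against normoxia, where 4.82% and 7.57% of all probe sets were. In hypoxia the counts were 3 (6.98%) and 1 (2.33%), against 3.33% and 7.64%. In hypoxia with SU5416 against hypoxia they were 4 (9.3%) and 1 (2.33%), against 4.02% and 3.45%. Each of the 43 was read on its brightest probe set, whereas the shares cover all probe sets, dim ones included, so the sets compared are unlike. The median difference was 0.08 in hypoxia and 0.18 with SU5416 against normoxia. SAM called Loxl2 and Pcolce, both in hypoxia with SU5416 against normoxia, where it called 366 of all 31042 probe sets.

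Chains are first hydroxylated on proline and lysine in the endoplasmic reticulum. P4ha3, a catalytic subunit of prolyl 4-hydroxylase, read 8.74, 8.65, 8.62 and 8.84 in normoxia, 9.09, 9.07, 9.04 and 8.86 in hypoxia, and 9.10, 9.34 and 9.50 with SU5416. The groups did not overlap in any comparison, and the differences from normoxia were 0.30 (SE 0.11, limma adjusted p = 0.385) and 0.60 (SE 0.12, limma adjusted p = 0.113). The more general subunits P4ha1 and P4ha2 differed by 0.13 and -0.01 in hypoxia and by 0.07 and 0.36 with SU5416. Plod2, a lysyl hydroxylase that sets the type of crosslink, differed by 0.07 and 0.55 (SE 0.18 and 0.19, limma adjusted p = 0.913 and 0.302), and its SU5416 arrays were above all others. Without normoxia arrays 1 and 2 the Plod2 values were -0.21 and 0.27. Serpinh1, the collagen chaperone HSP47, differed by 0.09 and 0.18, and Crtap, part of the prolyl 3-hydroxylase complex, by -0.40 and -0.56 (SE 0.18 and 0.19).

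Outside the cell, propeptides are removed and fibrils are crosslinked. Pcolce, an enhancer of propeptide cleavage, read 9.70, 9.73, 9.70 and 9.76 in normoxia, 10.06, 10.28, 9.86 and 9.69 in hypoxia, and 10.24, 10.27 and 10.35 with SU5416. It differed by 0.25 (SE 0.12) in hypoxia and 0.57 (SE 0.13, limma adjusted p = 0.153) with SU5416, where no arrays overlapped with normoxia. Bmp1, the protease it enhances, lay on the other side of 0, with -0.24 and -0.59 (SE 0.21 and 0.23, limma adjusted p = 0.706 and 0.340). It read 11.28 and 10.85 on normoxia arrays 1 and 2 and 10.33 and 10.48 on the others, and without the first pair the values were 0.09 and -0.26. The lysyl oxidases Lox and Loxl2, which start crosslinks, differed by 0.45 and 0.12 in hypoxia and by 0.69 and 0.70 with SU5416 (SE 0.25 and 0.24, limma adjusted p = 0.310 and 0.300). For both, every SU5416 array was above every normoxia array. Without normoxia arrays 1 and 2 the SU5416 differences were 0.42 for Lox and 0.66 for Loxl2. The related Loxl1 and Loxl3 differed by -0.10 and 0.001 in hypoxia and by 0.23 and 0.20 with SU5416, with overlapping arrays. With those 2 normoxia arrays left out, their SU5416 differences were -0.0017 and 0.0015. Of the 6 fibril regulation genes, 4 were higher and 2 lower with SU5416 than in normoxia (median 0.58). Thbs2 and Bgn among them differed by 0.35 and 0.51 in hypoxia and by 0.80 and 0.64 with SU5416 (limma adjusted p = 0.180 and 0.272). Their SU5416 arrays did not overlap with normoxia, and without normoxia arrays 1 and 2 the SU5416 differences were 0.56 and 0.70.

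**Figure D5:**
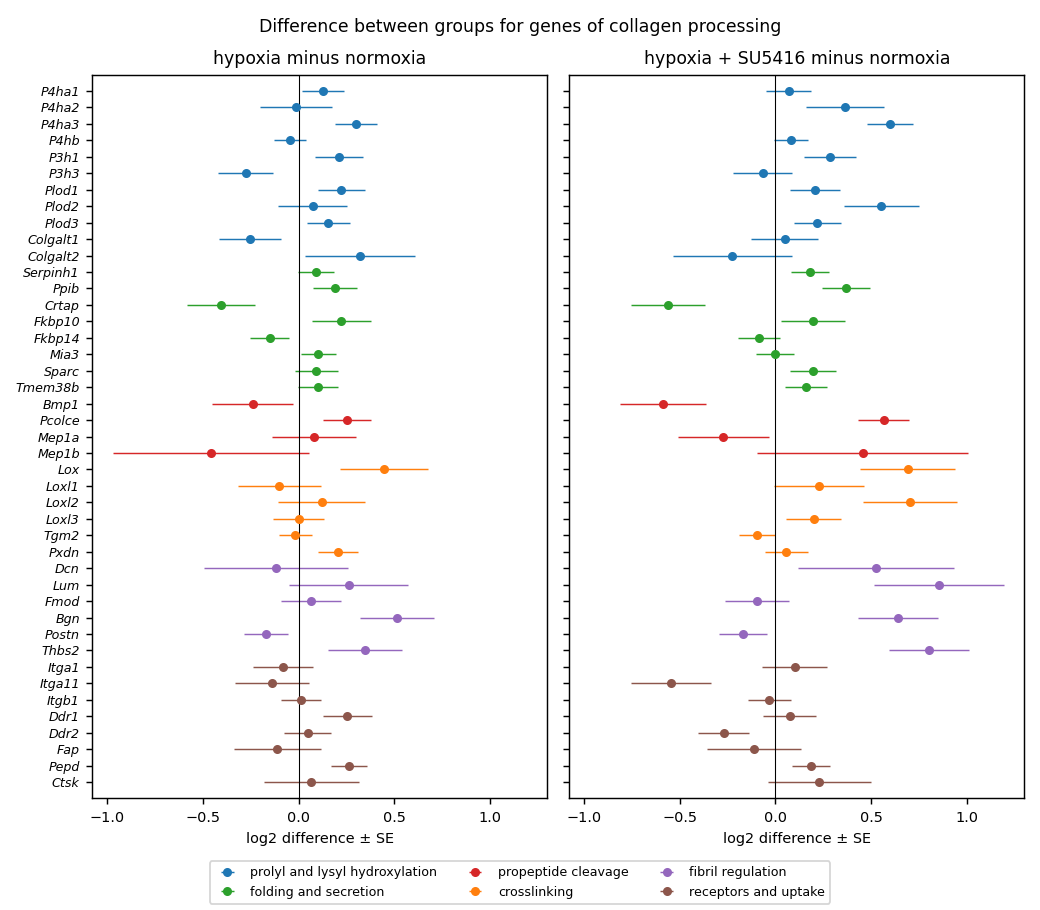
Difference of group means (log2, horizontal axis) with its standard error for the 43 measured genes of collagen modification, secretion, cleavage, crosslinking, fibril regulation and uptake, coloured by role. The SU5416 comparison with normoxia holds values from -0.59 (Bmp1) to 0.85 (Lum), and no gene passed the adjusted threshold.

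In whole lung, fewer cells of a type and less RNA per cell cannot be told apart, and lists of cell type markers were therefore read beside the collagens. All 8 measured smooth muscle and pericyte markers had higher means with SU5416 than in normoxia (median 0.40). The log2 of their summed signal was 14.0 to 14.1 with SU5416, 13.4 to 13.7 in normoxia and 13.4 to 13.9 in hypoxia. All 8 fibroblast markers were likewise higher (median 0.27), with summed levels of 13.5 to 13.7 against 13.2 to 13.7 in normoxia and 13.2 to 13.6 in hypoxia, and this list shares Dcn and Lum with the processing genes. In hypoxia against normoxia, 7 of 8 smooth muscle and pericyte markers (median 0.16), 5 of 8 fibroblast markers (median 0.06) and 3 of 6 endothelial markers (median -0.08) were higher. Normoxia array 3, with the highest cardiac sum, also held the highest normoxia values of Col1a1 (12.03), Col14a1 (10.47), Dcn (11.70) and Lum (10.55). Normoxia array 2, next in cardiac sum, read below array 4 for Col1a1 (11.12 against 11.22), Col14a1 (9.14 against 9.57) and Lum (9.37 against 9.49). For Dcn it read above array 4 (10.70 against 10.36). Of 6 measured endothelial markers 1 was higher with SU5416 than in normoxia (median -0.25), where 47.4% of all genes were. The endothelial sums were 14.3 to 14.4 with SU5416, 14.5 to 14.9 in normoxia and 14.5 to 14.6 in hypoxia. Normoxia arrays 1 and 2, those of the wide beta-actin gap, gave 14.9 and 14.8, and arrays 3 and 4 each gave 14.5. No gene of these 3 lists was called, and all were above background in every group.

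For the cartilage-type collagens Col2a1, Col9a1, Col10a1, Col11a1 and Col11a2, 3 of 6 measured cartilage markers were higher with SU5416. Their summed level was 9.55 to 9.72, against 9.41 to 9.79 in normoxia and 9.33 to 9.60 in hypoxia, and 5 of the 6 were above background in every group. The median difference of the other marker lists, cardiac muscle included, in hypoxia with SU5416 against normoxia lay between -0.57 (T cell) and 0.32 (macrophage), with no gene called. The part of these cell types in the collagen values was not tested.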

How the data were processed

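Each array has 1 deposited log2 signal for each probe set. Per the submitters' processing notes they were made with RMA, whose version is not given in the sources used here. The array distributions differ in shape and on all arrays the linear mean is 500 once 2% of values are dropped at either end, which RMA's quantile step alone would not give, so the summarisation is uncertain while the log2 scale is not. Array medians were 7.80 to 8.01. The values were used as deposited.

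Probe sets were named from the platform's annotation. The 57 array controls were set aside and 31042 probe sets were fitted in limma 3.58.1 (R 4.3.3) with a mean per group on all 11 arrays and moderated by eBayes, two-sided, with Benjamini-Hochberg adjustment over all of them. The procedure was tested on simulated data. Promoter sequences were RefSeq's on GRCr8. Tables used pandas 2.3.3 and numpy 2.4.6 in Python 3.11.15, and figures matplotlib 3.10.9.

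The collagens, the lists of processing genes and of cell type markers, and the alternatives were chosen with earlier results of these data known. The rule names 15 collagens whatever their values. It adds those of smallest unadjusted p in any comparison, among probe sets above background in at least 1 group, to give 19 in all. Other genes named in the text were chosen after their values were seen. Alternatives were quantile normalization, centring on array medians, dropping probe sets dimmer than the median of all, fitting only the groups compared, trend and robust options, array weights, an adjusted p below 0.1, SAM with a delta of 0.639 and a minimum fold of 1.4, the median over probe sets of a gene, the replicate number as a block, the beta-actin gap as a covariate, and leaving out normoxia arrays 1 and 2 or each array in turn. Those for the processing list and the chain pairs, and normoxia arrays left out for collagens outside the 19, were added after seeing the data. Replicate numbers come from the labels, which do not say that they pair arrays, and deviations of same-numbered arrays correlated from -0.125 to 0.128.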

Additional observations from a re-analysis of the deposited data

Results flagged for a closer look

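In each group of 4 arrays, the highest and lowest value of each of the 58 collagen probe sets were compared with the next. On the second Col5a2 probe set, normoxia array 2 read 11.45, while the others of its group read 11.73 to 11.78. For Col16a1, hypoxia array 4 read 10.32, while the others read 10.48 to 10.49. For Col10a1, normoxia array 4 read 5.554, while the others read 6.568 to 6.746. On the brightest Col11a1 probe set, normoxia array 3 read 8.194, above the others at 7.318 to 7.45. On the brightest Col2a1 probe set, normoxia array 3 read 4.792 beside 6.191 to 6.312, and on another, normoxia array 2 read 4.584 beside 6.194 to 6.48, all near background. These were 6 of 116 groups tested with a gap above Dixon's critical value, where chance gives about 5% of groups.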

How the results depend on the processing

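The count of called collagen probe sets in hypoxia with SU5416 against normoxia, 0 as reported, was 1 with quantile normalization (Col18a1, with 43 called among all 31042), 2 at an adjusted p below 0.1 (Col18a1 and Col6a5, with 108 among all), 4 with dim probe sets left out (Col16a1, Col18a1 and Col6a5, with 214 among 15521), 4 with trend and robust options (the same genes, with 145 among all) and 4 by SAM (Col11a1, Col18a1 and Col6a5, with 366 among all). SAM called 1 in hypoxia with SU5416 against hypoxia (Col18a1, with 311 among all, 310 of them higher). The Col11a1 signal that SAM called lay below background in every group. Of the processing genes, 1 was called with dim probe sets left out (P4ha3) and 2 by SAM (Loxl2 and Pcolce), both against normoxia with SU5416. The other alternatives called none.

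The fibrillar median in hypoxia was -0.0098 with quantile normalization, 0.0175 with dim probe sets left out, -0.0065 with array weights, and -0.1454 to 0.0058 leaving out single arrays. With dim probe sets left out it was 0.3355 in hypoxia with SU5416 against normoxia and 0.29 against hypoxia. The median of other collagens in hypoxia was 0.131 with centring and -0.0245 over all probe sets of a gene, and with SU5416 against normoxia 0.1238 with dim probe sets left out. Leaving out single arrays, the basement membrane median with SU5416 against normoxia was 0.165 to 0.3333, and the median of other collagens against hypoxia 0.0167 to 0.14.

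Of 1191 values of single genes under alternatives, 1138 kept their direction and side of the threshold, 7 gained a call and 46 turned sign, in 14 of 57 gene comparisons, whose differences with all arrays ran from -0.15 to 0.38. For hypoxia, quantile normalization gave 0.0639 for Col3a1 and -0.0098 for Col5a2, and centring 0.08 for Col3a1 and 0.0572 for Col14a1. The beta-actin covariate gave -0.0429 for Col5a2 and -0.032 for Col6a1, and without normoxia arrays 1 and 2 the values were -0.1175 for Col5a2, -0.095 for Col6a1 and -0.12 for Col6a3. Leaving out single arrays gave -0.0575 to 0.0625 for Col3a1, -0.3064 to 0.0232 for Col5a1, -0.0492 to 0.11 for Col5a2, -0.0342 to 0.1592 for Col6a1, -0.0333 to 0.18 for Col6a3 and -0.2333 to 0.2817 for Col14a1.

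For hypoxia with SU5416 against normoxia, quantile normalization gave -0.0152 for Col5a2 and array weights -0.0488 for Col15a1. The beta-actin covariate gave -0.034 for Col5a2, -0.009 for Col4a1, -0.1849 for Col15a1 and -0.0328 for Col14a1. Without normoxia arrays 1 and 2 the values were -0.0783 for Col5a2, -0.0617 for Col4a1, -0.21 for Col15a1, -0.0033 for Col6a3 and -0.1163 for Col14a1. Single arrays left out gave -0.01 to 0.1233 for Col5a2, -0.2167 to 0.3333 for Col15a1 and -0.0425 to 0.1575 for Col12a1. Against hypoxia, Col5a2 was -0.0055 with quantile normalization, -0.0025 with centring and -0.0533 to 0.0933 without single arrays, and Col12a1 was 0.0049 with array weights and -0.1175 to 0.0825. The cause of these turns was not tested.

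With the replicate number as a block, 0 collagens were called in each comparison and Col18a1 differed by 1.07 with SU5416 against normoxia. Deviations of same-numbered arrays correlated only weakly over all probe sets, a check that cannot show whether the numbers pair the arrays. Signal over background limits Col5a3, Col9a1 and Col19a1, which were below it in all groups.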
